A study of Mus musculus with 16 samples.

Results

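MHC class I antigen presentation genes were followed through the cortex of newborn mice after early-life pain. The set consists of 9 genes chosen by symbol, B2m, H2-K1, H2-D1, Tap1, Tap2, Tapbp, Nlrc5, Psmb8 and Psmb9, among the 36930 gene entries of the RNAseq table. The rule itself uses no measured value, but the genes were chosen with earlier results of these data known. Each of the 9 symbols matched 1 entry, 8 of them passed the filter on low values that left 21183 genes, and B2m had no value in any pup.

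Whole cortices of 16 C57BL6 pups were sequenced at postnatal day 7. The 8 Avil-ChR2 pups (5 female, 3 male) carry Advillin-Cre and a channelrhodopsin-2/td-Tomato fusion in the Rosa26 locus, from which Cre removes a floxed STOP. The 8 ChR2-flfl controls (4 female, 4 male) are Cre-negative litter mates with the floxed construct, so that channelrhodopsin-2 is not made. All 16 pups were kept under blue light for 1 h a day between P1 and P5, so no group went without light. Advillin is described as enriched in non-peptidergic nociceptors of postnatal dorsal root ganglia, and how far Cre acted in the cortex was not tested. The labels name no litters. Pups are named by their mouse numbers, which form 2 runs, 26 to 33 and 35 to 42, each with 4 pups of either genotype; the labels do not say what the runs stand for.

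MHC class I molecules present short peptides from the inside of a cell at its surface. The proteasome cuts proteins into peptides, and under interferon the subunits Psmb8, Psmb9 and Psmb10 replace its constitutive catalytic subunits. The transporter made of Tap1 and Tap2 carries peptides into the endoplasmic reticulum, where Tapbp (tapasin) helps to load them onto the heavy chains H2-K1 and H2-D1, which are bound to B2m, the light chain. Nlrc5 is the transactivator of class I genes. In the brain these molecules are known for low levels in the healthy tissue, and, beyond immunity, for a part in pruning of synapses during development.

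The promoters of class I heavy chains and B2m are known for a kappa B element, an interferon-stimulated response element and an SXY module, of which X2 and Y boxes are parts. The promoters of H2-K1, H2-D1 and B2m are shown because H2-K1, H2-D1 and the table entry that spans B2m were highest in the same pup. Reads of that entry cannot be assigned to B2m. The choice was made after the values were seen. Tapbp was also highest in that pup, and its promoter, which held CCAAT matches only, is not shown. That of Tap1 is shown because Psmb9 starts head to head with it on the other strand. The sequences are from RefSeq on GRCm38.p6, from 250 bases before to 50 bases after the annotated start, and were found for 7 of the 9 genes. Capitals mark matches, on either strand, to GGGATTCCC (kappa B), GAANNGAAA or GAAANNGAA (interferon response), TGACG (X2 core) and CCAAT (Y box).
H2-K1, chr17:34000298-34000597, minus strand: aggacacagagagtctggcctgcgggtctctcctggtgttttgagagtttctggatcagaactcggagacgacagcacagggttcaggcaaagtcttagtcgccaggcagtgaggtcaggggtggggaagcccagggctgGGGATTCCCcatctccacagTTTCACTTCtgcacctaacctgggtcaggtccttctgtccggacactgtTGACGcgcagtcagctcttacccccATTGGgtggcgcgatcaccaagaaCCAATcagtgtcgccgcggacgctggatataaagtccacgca
H2-D1, chr17:35262844-35263143, plus strand: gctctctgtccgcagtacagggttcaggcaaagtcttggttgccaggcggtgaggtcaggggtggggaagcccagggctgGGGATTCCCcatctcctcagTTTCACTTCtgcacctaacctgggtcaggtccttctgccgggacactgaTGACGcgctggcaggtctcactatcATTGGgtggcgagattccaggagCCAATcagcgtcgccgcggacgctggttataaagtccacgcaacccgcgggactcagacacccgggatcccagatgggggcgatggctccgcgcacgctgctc
B2m, chr2:122147437-122147736, plus strand: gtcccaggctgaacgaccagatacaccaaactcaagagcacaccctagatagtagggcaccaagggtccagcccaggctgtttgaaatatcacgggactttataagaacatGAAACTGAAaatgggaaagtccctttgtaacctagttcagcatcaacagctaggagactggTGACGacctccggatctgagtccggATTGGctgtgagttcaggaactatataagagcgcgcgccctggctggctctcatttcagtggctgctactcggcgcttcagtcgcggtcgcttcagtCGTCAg
Tap1, chr17:34187306-34187605, plus strand: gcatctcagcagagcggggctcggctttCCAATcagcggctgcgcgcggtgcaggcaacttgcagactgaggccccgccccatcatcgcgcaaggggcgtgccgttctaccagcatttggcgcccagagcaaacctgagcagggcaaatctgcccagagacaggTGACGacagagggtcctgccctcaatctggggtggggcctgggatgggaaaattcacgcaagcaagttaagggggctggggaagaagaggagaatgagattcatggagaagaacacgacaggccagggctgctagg
The kappa B letters stood in 2 of the 7 promoters, those of H2-K1 and H2-D1, and in 115 of 32544 distinct mouse promoters of the same length (0.353%). Both heavy chain promoters also held GAANNGAAA on the other strand, which 7.57% of all promoters hold, and B2m held GAAANNGAA, which 8.53% hold. TGACG was present in 5 of the 7 promoters and in 20.9% of all, and CCAAT in 6 of the 7 and in 37.4% of all. The windows of Tap1 and Psmb9 overlap, and their TGACG and CCAAT matches are the same sites read on opposite strands. A shared site of each kind thus counts for both genes. The order of the matches was the same in H2-K1 and H2-D1, where kappa B was followed by the interferon element, X2 and both Y boxes. The windows of H2-K1 and H2-D1 were identical at 211 of 239 aligned bases (88.3%). The X2 match began at position -41 from the annotated start in H2-K1 and at -101 in H2-D1. Within a window no match overlapped another. These matches describe the letters of the reference and not the binding of a factor.

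Libraries held between 30549126 and 48711134 reads. The genotypes were told apart by Avil itself, with 0.825 to 1.46 CPM (read counts scaled to library size with TMM factors) in ChR2-flfl and 37.3 to 46.4 CPM in Avil-ChR2, that is, in the sequenced cortex. Neuronal markers summed to between 4155 and 4609 CPM in all pups. One library stood apart for class I genes, that of Avil-ChR2 pup 40, a female (replicate 8), and results are given with and without it.

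The light chain could not be read from the table. B2m lies at chr2:122147687-122153082 on the plus strand, wholly inside the span of Patl2, chr2:122120103-122186189 on the minus strand, a gene for an RNA-binding protein best known from oocytes. B2m had no value in any pup, whereas the Patl2 entry held a mean of 30.3 CPM ± 3.61 (SD, n = 8) in the controls and of 32.2 CPM ± 6.16 (SD, n = 8) in Avil-ChR2. The same was seen across the table, where 5540 of 5866 entries inside the span of another entry (94.4%) had no value in any pup, against 3150 of 31020 other entries (10.2%). Reads of B2m and Patl2 therefore cannot be told apart here. Among the other class I genes H2-T23 and H2-T24, both inside the span of A930015D03Rik, were also without a value, and so was the inhibitory receptor gene Kir3dl1 inside Kir3dl2. The reads of the Patl2 entry lay between 22.5 and 34.3 CPM in 15 pups and at 45.0 CPM (2185 reads) in pup 40. That entry is described below beside the 8 genes, as reads of B2m or Patl2 or both.

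The remaining 8 genes showed a wide range of levels at P7. Per kb of the longest annotated transcript, H2-D1 was highest in ChR2-flfl with 12.1 CPM per kb ± 0.880 (SD, n = 8), followed by Tapbp with 6.60 ± 0.700 and H2-K1 with 2.89 ± 0.231. These 3 did not overlap in range with each other or with any of the other 5. Tap2 followed with 0.747 CPM per kb ± 0.105, Tap1 with 0.582 ± 0.0857 and Psmb8 with 0.536 ± 0.156, and the ranges of these neighbours overlapped. The lowest were Psmb9 with 0.163 CPM per kb ± 0.0542 and Nlrc5 with 0.0934 ± 0.0198, whose ranges overlapped as well. These levels depend on the transcript chosen, 2.88 kb for Psmb9 and 7.58 kb for Nlrc5, and which transcripts the cortex makes was not tested. Without the length, mean values in ChR2-flfl were 0.469 CPM for Psmb9 and 0.708 CPM for Nlrc5, which is the reverse order.

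The inducible proteasome subunits were scarce beside their constitutive counterparts. On the same scale the constitutive subunits Psmb6, Psmb5 and Psmb7 stood at 89.4, 45.8 and 38.6 CPM per kb in ChR2-flfl. Psmb8 amounted to 1.17% ± 0.342 (SD, n = 8) of Psmb5 in the controls and to 1.07% ± 0.204 (SD, n = 8) in Avil-ChR2. Psmb9 amounted to 0.182% ± 0.0584 of Psmb6 in ChR2-flfl and 0.151% ± 0.0671 in Avil-ChR2. Psmb10, the third inducible subunit, was the exception, with 36.0% ± 1.61 of Psmb7 in ChR2-flfl and 37.2% ± 4.74 in Avil-ChR2. The size of these ratios depends on the longest transcripts, 2.88 kb for Psmb9 beside 0.966 kb for Psmb6, and 1.31 kb for Psmb10 beside 2.85 kb for Psmb7. Without the length, ChR2-flfl means were 0.469 CPM for Psmb9 beside 86.4 for Psmb6, and 18.2 CPM for Psmb10 beside 110 for Psmb7. The ratio of Tap1 to Tap2 was 0.791 ± 0.148 in ChR2-flfl and 0.761 ± 0.128 in Avil-ChR2.

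**Figure D1:**
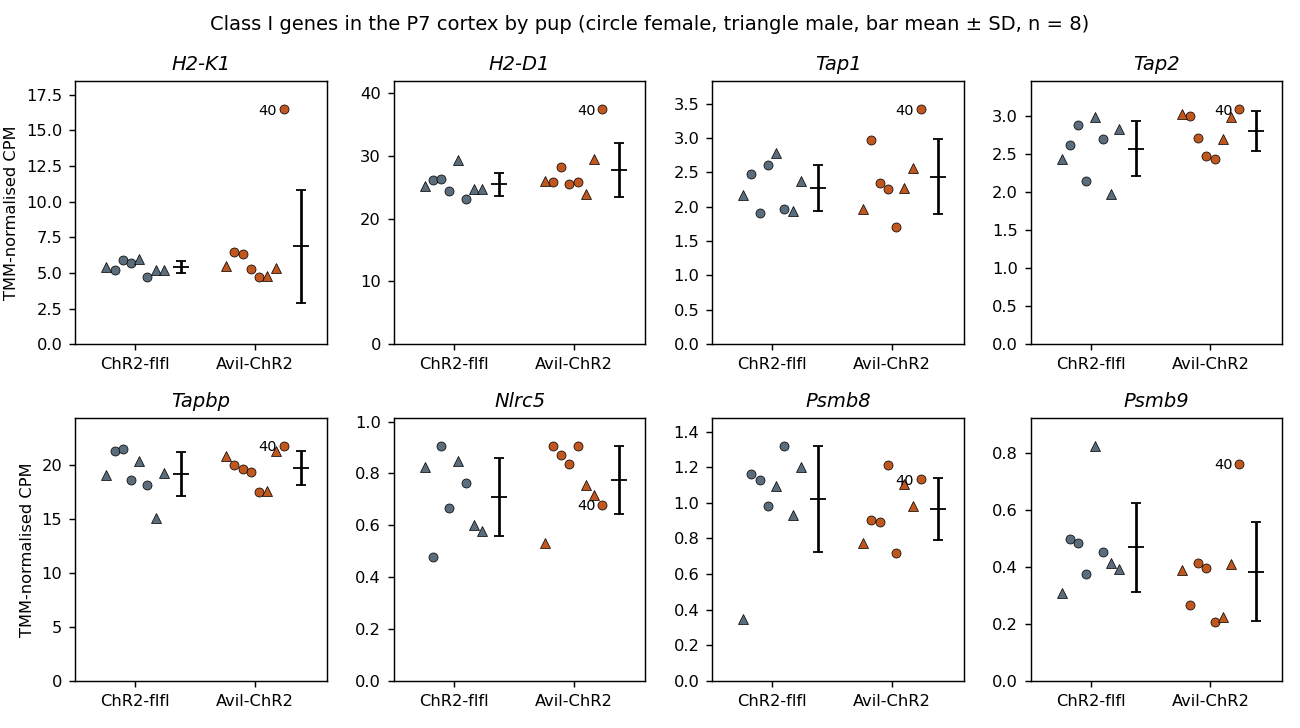
TMM-normalised CPM of 8 class I genes in each pup (y axis from 0, 1 scale per gene), with circles for females, triangles for males, pups in order of mouse number and bars for mean ± SD (n = 8 per genotype). The label 40 marks Avil-ChR2 pup 40, which stands at 16.5 CPM for H2-K1 while the other 15 pups lie between 4.69 and 6.46 CPM.

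The first question was whether class I genes differed between pups with and without light-sensitive nociceptors. None of the 8 genes passed limma's moderated test, neither at an adjusted p under 0.05 (background 0.00944%, 2 of 21183 genes) nor at an unadjusted p under 0.05 (background 5.41%, 1145 genes). In Avil-ChR2 6 of the 8 genes had a positive and 2 a negative difference, between -0.35 and 0.21 on the log2 scale, with a median of 0.10 beside 0.0020 over all genes tested. Without pup 40 the median was 0.02. Adjusted p-values of the 8 genes, from limma with Benjamini-Hochberg adjustment over all 21183 genes, lay between 0.945 and 0.998. The ranges of the groups overlapped in all 8 genes, and the share of all tested genes with overlapping ranges was not computed.

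For the heavy chain H2-K1 (chr17:33996012-34000342, minus strand) the 8 ChR2-flfl pups lay between 4.70 and 6.01 CPM with a median of 5.32. The 8 Avil-ChR2 pups had a median of 5.43 and ranged from 4.69 to 16.5 CPM. The medians were close, and the upper end of the Avil-ChR2 range was pup 40 alone, since the next pup had 6.46 CPM. The log2 difference, Avil-ChR2 minus ChR2-flfl, was 0.21 ± 0.18 (SE; 95% confidence interval -0.17 to 0.59; adjusted p = 0.954, limma), and 0.01 without pup 40. The mean in Avil-ChR2 was 6.86 CPM ± 3.94 (SD, n = 8), and 5.48 ± 0.689 (SD, n = 7) without that pup.

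The other classical heavy chain, H2-D1 (chr17:35263094-35267497, plus strand), ranged from 23.2 to 29.3 CPM in ChR2-flfl with a median of 25.0. In Avil-ChR2 it ranged from 23.9 to 37.5 CPM with a median of 26.0. Pup 40 was again the highest, ahead of pup 39 with 29.5 CPM, and the log2 values of 7 of 8 Avil-ChR2 pups exceeded the control mean. The log2 difference was 0.11 ± 0.071 (SE; interval -0.03 to 0.26; adjusted p = 0.945, limma; two-sided exact permutation p = 0.173), and 0.05 without pup 40. Over 50-base words, 6.52% of the longest H2-K1 transcript occur in H2-D1 transcripts, and 14.3% of the H2-D1 transcript occur in transcripts of other genes, led by H2-Q1, H2-Q7 and H2-Q6. The longest transcripts of H2-K1 and H2-D1 were identical at 1412 of 1541 aligned bases (91.6%). How reads that fit several heavy chains were counted is not given in the sources used here, so levels of single heavy chains are uncertain.

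Both subunits of the peptide transporter were measured with few reads, 59 to 166 per pup for Tap1 and 89 to 150 for Tap2. Tap1 (chr17:34187556-34197225, plus strand) ranged from 1.91 to 2.79 CPM (median 2.27) in ChR2-flfl and from 1.71 to 3.42 CPM (median 2.31) in Avil-ChR2, with pup 40 highest and pup 29 next at 2.96 CPM. The log2 difference was 0.08 ± 0.13 (SE; interval -0.19 to 0.35), and 0.0069 without pup 40. Tap2 (chr17:34204085-34216321, plus strand) ranged from 1.97 to 2.99 CPM (median 2.66) in ChR2-flfl and from 2.43 to 3.09 CPM (median 2.85) in Avil-ChR2, with a log2 difference of 0.13 ± 0.094 (SE; interval -0.06 to 0.33), and of 0.11 without pup 40. Pup 40 did not stand apart for Tap2, where 3 more Avil-ChR2 pups had between 2.99 and 3.03 CPM. Tapbp (chr17:33919478-33929290, plus strand), the bridge between transporter and heavy chain, ranged from 15.1 to 21.5 CPM (median 19.2) in ChR2-flfl and from 17.4 to 21.7 CPM (median 19.8) in Avil-ChR2. Its log2 difference of 0.05 ± 0.064 (SE; interval -0.09 to 0.18) had the narrowest interval of the 8 genes, and it was 0.03 without pup 40. Of its words 19.0% are shared with the overlapping locus Gm19412.

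The transactivator Nlrc5 (chr8:94434354-94527272, plus strand) was covered by 23 to 44 reads per pup. It ranged from 0.477 to 0.905 CPM (median 0.716) in ChR2-flfl and from 0.532 to 0.906 CPM (median 0.797) in Avil-ChR2. Pup 40, highest for the heavy chains, had 0.679 CPM, which is within the range of either group. The log2 difference was 0.14 ± 0.16 (SE; interval -0.18 to 0.47), and 0.17 without pup 40.

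Of the 8 genes, Psmb8 and Psmb9 varied most among the controls, with coefficients of variation of 29.1% and 33.3%. Those of H2-K1 and H2-D1 were 7.99% and 7.25%. Control pups had 17 to 64 reads for Psmb8 and 15 to 40 for Psmb9, against 182 to 291 for H2-K1 and 817 to 1422 for H2-D1. How much of the spread comes from the low read counts was not tested. Psmb8 (chr17:34198195-34201454, plus strand) lay between 0.934 and 1.32 CPM in 7 ChR2-flfl pups and at 0.350 CPM (17 reads) in ChR2-flfl pup 26. In Avil-ChR2 it ranged from 0.721 to 1.21 CPM (median 0.945), and the log2 difference was -0.01 ± 0.22 (SE; interval -0.47 to 0.44), and -0.05 without pup 40. Psmb9 (chr17:34182030-34187330, minus strand) was counted with 10 to 40 reads per pup. It ranged from 0.309 to 0.825 CPM (median 0.435) in ChR2-flfl and from 0.206 to 0.762 CPM (median 0.393) in Avil-ChR2. The highest values belonged to ChR2-flfl pup 35 and Avil-ChR2 pup 40. Leaving out pup 35 weakened the log2 difference of Psmb9 to -0.22, and leaving out pup 40 strengthened it to -0.51. Its log2 difference was -0.35 ± 0.25 (SE; interval -0.87 to 0.17; adjusted p = 0.945, limma; two-sided exact permutation p = 0.205). Without pup 40 it was -0.51 (two-sided exact permutation p = 0.0406; limma p = 0.0354 unadjusted and 0.962 adjusted over all genes), which was the 1 of 8 genes with an unadjusted p under 0.05 in that setting (background 5.08%, 1076 of 21183 genes), and 0 of 8 passed at an adjusted p (background 0.00472%).

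**Figure D2:**
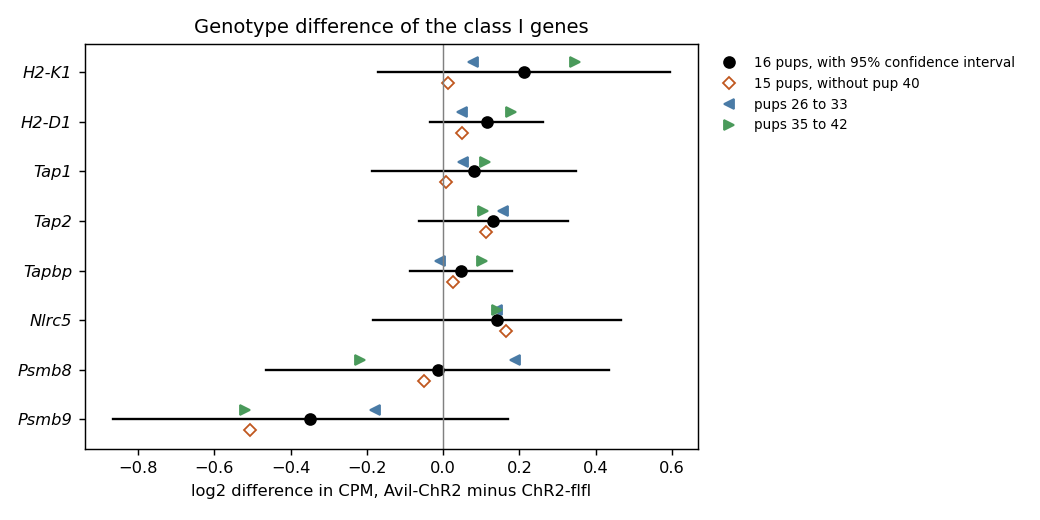
Log2 difference in CPM, Avil-ChR2 minus ChR2-flfl (x axis), for each of 8 class I genes, with black points and lines for the 16 pups and their 95% confidence intervals, open diamonds for 15 pups without pup 40, and triangles for the runs 26 to 33 (left-pointing) and 35 to 42 (right-pointing). All 8 intervals cross 0, and the H2-K1 difference moves from 0.21 to 0.01 when pup 40 is left out.

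Within the runs of mouse numbers, 6 of the 8 genes had the same sign in both. The H2-K1 difference was 0.08 among pups 26 to 33 and 0.34 among pups 35 to 42, and -0.09 in the latter run without pup 40. Psmb8 changed sign, with 0.19 among pups 26 to 33 and -0.22 among pups 35 to 42, and Tapbp did so with -0.01 and 0.10. The genotype by run interaction passed in 0 of 8 genes at an adjusted p (background 0%, limma) and 0 of 8 at an unadjusted p (background 3.04%).

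Between the runs themselves, in a model with genotype, no class I gene passed limma's test at an adjusted p under 0.05 (background 0.123%) or at an unadjusted p under 0.05 (background 12.5%). The differences, pups 35 to 42 minus pups 26 to 33, lay between -0.09 for Tapbp and 0.26 for Psmb8 on the log2 scale. The same held for sex, male minus female, with 0 of 8 genes at an adjusted p (background 0.0425%) and 0 of 8 at an unadjusted p (background 4.46%), and with differences between -0.26 for Psmb8 and 0.03 for Tap2. The genotype by sex interaction passed in 0 of 8 genes at an adjusted p (background 0%, limma) and 0 of 8 at an unadjusted p (background 4.31%).

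Pup 40 was a case of its own. Both classical heavy chains and some of the non-classical chains exceeded those of every other pup. H2-K1 stood at 16.5 CPM (801 reads), which is 3.03 times the mean of the other 15 pups, and H2-D1 at 37.5 CPM (1820 reads), which is 1.44 times that mean. Of the 6 non-classical chains of the Q region that were tested, H2-Q4, H2-Q6 and H2-Q7 were also highest in pup 40, and H2-Q1, H2-Q2 and H2-Q10 were not. H2-Q6 had 2.04 CPM in pup 40 and 0.288 to 0.664 CPM elsewhere. H2-Q4 had 3.38 CPM in pup 40 and 0.519 to 1.54 CPM elsewhere. H2-Q7 had 1.71 CPM in pup 40 and 0.516 to 1.07 CPM elsewhere. Within the range of the other pups were H2-Q1 with 1.24 CPM (up to 1.26 elsewhere), H2-Q2 with 0.906 CPM (up to 1.18 elsewhere) and H2-Q10 with 0.185 CPM (up to 0.332 elsewhere). H2-K1, H2-D1, H2-Q4, H2-Q6 and H2-Q7 summed to 61.1 CPM in pup 40 and to between 29.7 and 37.8 CPM in the other 15 pups. This set of 5 was named after the values were seen. Several of the 5 share sequence, as given above, so their values may not be separate measures.

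The gap between pup 40 and the next pup was compared over the 15135 genes whose log2 values averaged 0 or more in the other pups. H2-Q6 and H2-Q7, with means of 0.491 and 0.800 CPM in the other pups, fell below that level and were not ranked. Among the ranked genes H2-K1 had the largest gap (1.35 on the log2 scale) and H2-Q4 the second largest (1.14). The Patl2 entry, which spans B2m, was the ninth with 0.39 and H2-D1 the tenth with 0.35. Thus 3 of the 10 largest gaps were class I heavy chains, and a further one was the Patl2 entry. Between them were Rasgrp4, St8sia6 and the neurotrophin gene Ntf3, among others. This ordering describes 1 library, and no test applies to it.

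The rest of the pathway did not follow evenly. Pup 40 was highest for Tap1, Tap2 and Tapbp too, but by 0.21, 0.03 and 0.02 on the log2 scale, and for Psmb9 it was second to ChR2-flfl pup 35. Pup 40 was singled out for its class I values, so the shares of class I genes that follow are a description and no test. It was highest for 5 of the 8 genes of the set (62.5%) and for 5 of 13 other class I and class I-like chains (38.5%), against 6.86% of all genes tested. Beside the 3 Q region chains these were H2-T22 with 5.56 CPM (up to 5.54 elsewhere) and Mr1 with 2.06 CPM (up to 1.92 elsewhere), which presents vitamin metabolites. Among the trimming and loading factors it was highest for 0 of 6, among the constitutive proteasome subunits for 0 of 3, and among the immunoproteasome and activator genes for 1 of 4, Psme1. Of the interferon-responsive regulators, Irf1 stood at 2.20 CPM in pup 40 (2.01 to 3.38 CPM elsewhere) and Irf9 at 10.4 CPM, the lowest of the 16 pups (up to 13.2 CPM elsewhere). Of 7 class II genes, which present peptides from outside the cell, it was highest for H2-Eb1 and H2-DMa. The 7 summed to 29.8 CPM in pup 40, above the 23.5 to 28.95 CPM of the other pups, and their invariant chain Cd74 had 3.36 CPM, within the range of 2.01 to 4.54 CPM elsewhere.

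**Figure D3:**
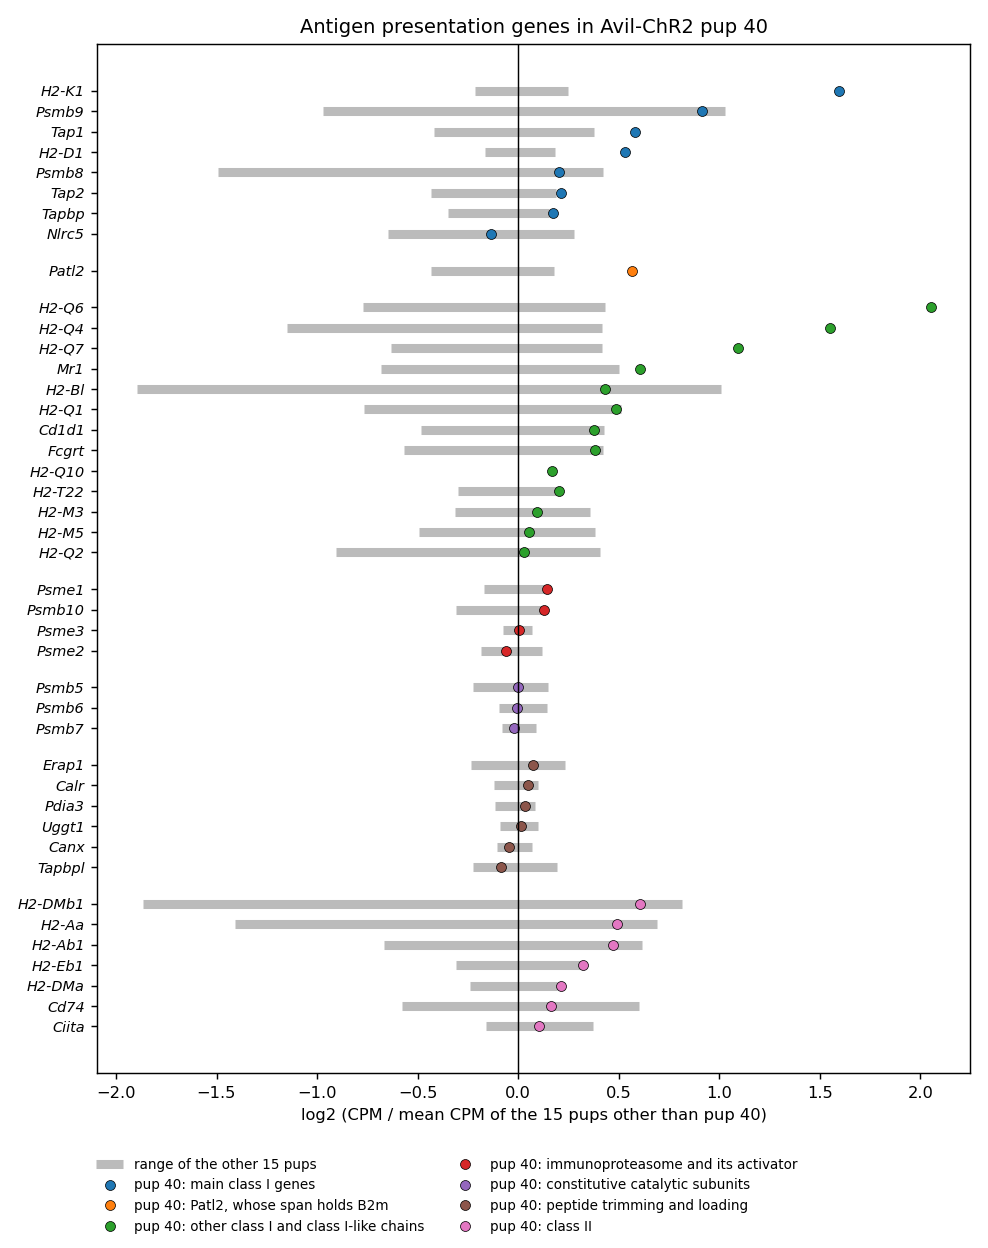
Level of antigen presentation genes in Avil-ChR2 pup 40 (coloured points, by gene group), as log2 of CPM over the mean CPM of the other 15 pups (x axis), with grey bars for the range of those 15 pups. H2-K1, H2-D1, H2-Q4, H2-Q6, H2-Q7 and Patl2, which spans B2m, lie beyond the bars by more than the other genes drawn, and the proteasome and loading factors lie within or at the edge of them. No bar is drawn for H2-Q10, which was at 0 in a pup.

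Of the 7 class I chains that were highest in pup 40, 6 lie on chromosome 17, in the K, D, Q and T regions of the mouse MHC, and Mr1 lies on chromosome 1. Most of the class I chains tested lie on chromosome 17, so their place there is no finding about pup 40. Between Tapbp and H2-T22 (chr17:33919478-36042742) 118 genes were tested. Of these, 17 (14.4%) were highest in pup 40, against 6.86% of all genes tested. The 17 include the class I genes by which pup 40 was singled out, so the share is a description and no test. The median excess of pup 40 over the mean of the other pups was 0.08 on the log2 scale in this stretch. The ratio of H2-K1 to H2-D1 per kb was 0.494 in pup 40 and between 0.204 and 0.280 in the other 15 pups.

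Markers of other cells were examined beside this. In a whole tissue, more cells of a type and more RNA per cell cannot be told apart. The 7 endothelial markers summed to 183 CPM in pup 40, above the range of 147 to 175 CPM of the other 15 pups, with 4 of 7 highest in pup 40 (Cldn5, Cdh5, Ly6c1 and Tek). The 8 microglia markers with values summed to 301 CPM, within the range of 254 to 346 CPM elsewhere, and P2ry12 had no value in any pup. The 6 markers of meninges and fibroblasts summed to 372 CPM, the second highest of 16 (201 to 385 CPM elsewhere), and the 6 markers of other leukocytes to 7.12 CPM, the third highest (4.16 to 8.19 CPM elsewhere). Of the T cell markers Cd3d had a value in 2 pups, Cd3g in 9 and Cd3e in 10. Cd4 and Cd8a, which passed the filter, summed to 0.824 CPM in pup 40 and 0.184 to 0.556 CPM elsewhere. Only Cd4 was highest in pup 40, with 0.659 CPM (32 reads, up to 0.420 CPM elsewhere). Cd8a had 0.165 CPM (8 reads), within the range of 0.020 to 0.268 CPM elsewhere. Summed markers of neurons, astrocytes, oligodendrocyte lineage, red blood cells and choroid plexus of pup 40 were within the range of the other pups. The part of these cells in the class I values was not tested. Between genotypes the sums overlapped for each of the 10 marker lists, for example 257 to 346 CPM for microglia in ChR2-flfl and 254 to 315 CPM in Avil-ChR2.

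The next question was whether class I genes rose and fell together over pups. With genotype means removed, 22 of the 28 pairs of the 8 genes were positively correlated, with a median Pearson r of 0.41, and with a median of 0.33 without pup 40. Adjusted over 36 pairs, including those with Patl2, 4 had an adjusted permutation p under 0.05 for Pearson's r and 2 for Spearman's rho. Tap2 and Tapbp had r = 0.78 (adjusted permutation p = 0.0182) and rho = 0.76 (adjusted permutation p = 0.0369), with r = 0.69 without the 2 pups farthest from the median of Tap2. The relation was present in both runs, with r = 0.78 among pups 26 to 33 and 0.92 among pups 35 to 42, and r = 0.77 without pup 40. It was the only pair that passed for both coefficients. H2-K1 and H2-D1 had r = 0.86 (adjusted permutation p = 0.0244) and rho = 0.68 (adjusted permutation p = 0.0880), which became r = 0.63 without the 2 pups farthest from the median of H2-K1 and 0.56 without pup 40. H2-D1 and Psmb9 had r = 0.82 (adjusted permutation p = 0.0182) and rho = 0.66 (adjusted permutation p = 0.0880), but the run of pups 26 to 33 gave r = 0.25 and pups 35 to 42 gave 0.91. H2-K1 and Tap1 had r = 0.68 (adjusted permutation p = 0.0244) and rho = 0.62 (adjusted permutation p = 0.0880), with r = 0.35 and 0.79 in the runs and 0.40 without the 2 pups farthest from the median of H2-K1.

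H2-D1 and Tapbp passed for Spearman's rho only (rho = 0.74, adjusted permutation p = 0.0369), with r = 0.57. The r of Nlrc5 with the other 7 genes lay between -0.19 and 0.01, at 23 to 44 reads per pup. The Patl2 entry, which spans B2m, had r = 0.59 with H2-K1 (adjusted permutation p = 0.173) and 0.00 without pup 40. The r of Patl2 with Psmb8 was 0.65 (adjusted permutation p = 0.0578) and 0.71 without pup 40.

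**Figure D4:**
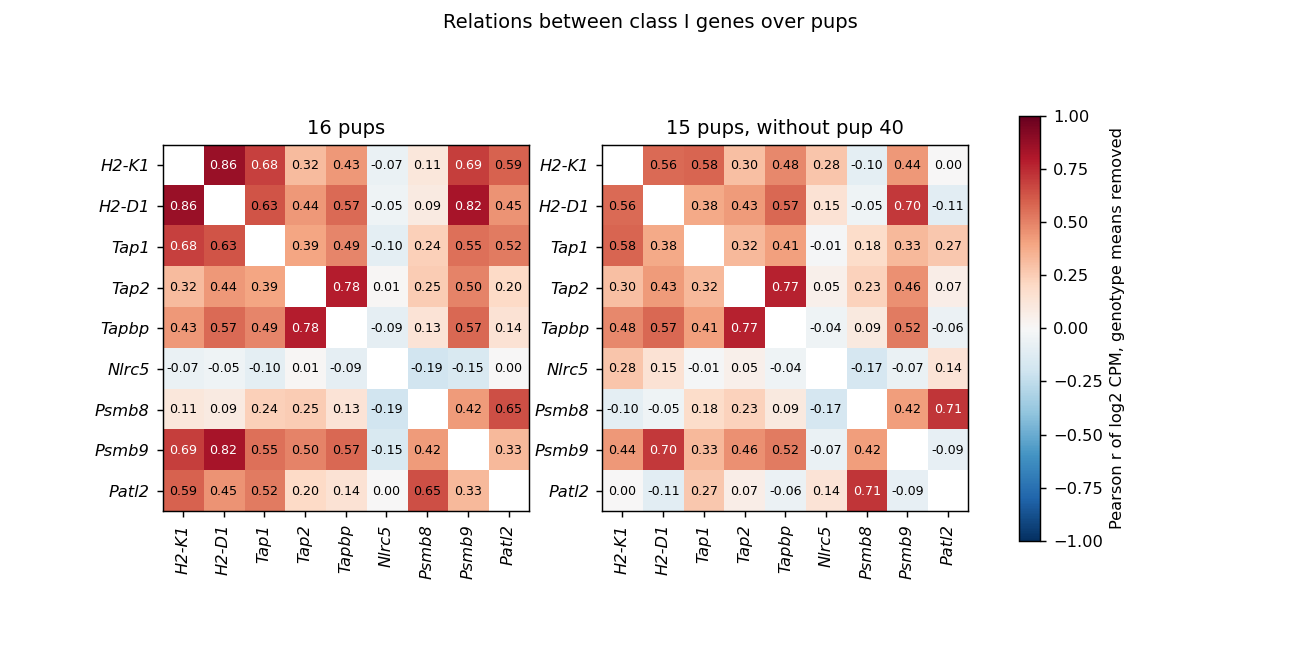
Pearson r of log2 CPM over pups with genotype means removed, for 8 class I genes and Patl2, in 16 pups (left) and without pup 40 (right), red for positive and blue for negative values. The H2-K1 and H2-D1 pair falls from 0.86 to 0.56 without pup 40, whereas Tap2 and Tapbp stay at 0.78 and 0.77.

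The gene most alike to each of the 8 over the 16 pups was taken from those whose log2 values averaged 0 or more (15136 genes beside H2-K1), as a description. For H2-K1 it was H2-D1 (r = 0.86), for H2-D1 Rreb1 (0.87), for Tap1 Pf4 (0.83), for Tap2 Scara3 (0.83), for Tapbp Apcdd1 (0.93), for Nlrc5 Uba7 (0.80), for Psmb8 Capzb (0.88) and for Psmb9 Cyb561d1 (0.87). Uba7 codes for the activating enzyme of the interferon-induced modifier ISG15. With the mean of the z-scored 8 genes, the highest r was that of Selenbp1 (0.92, and 0.81 without pup 40). The rest of the 10 highest were Pex10 (0.86), Heg1 (0.86), Ctdsp1 (0.85), Nfkb2 (0.85), Lamb2 (0.84), Stat5b (0.84), Col18a1 (0.84), Egfl7 (0.83) and Cyb561d1 (0.83). Without pup 40 these lay between 0.66 for Cyb561d1 and 0.81 for Pex10. Each r rests on the same 16 libraries, 1 per pup, and without a test it says nothing of shared control.

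Of 57 other genes of the pathway in 7 lists, 0 passed in the same limma fit between genotypes at an adjusted p under 0.05. At an unadjusted p 3 were higher and 0 lower in Avil-ChR2 (5.26%), near the background of 5.41% of all genes, of which 1.95% were higher and 3.46% lower. Of 13 other class I and class I-like chains tested, 1 was higher and 0 lower at an unadjusted p under 0.05, with a median log2 difference of 0.12. The 1 was H2-T22, a non-classical chain seen by gamma delta T cells, with 4.50 CPM ± 0.515 (SD, n = 8) in the controls against 5.24 ± 0.287 (SD, n = 8) in Avil-ChR2, a log2 difference of 0.23 ± 0.069 (SE; adjusted p = 0.813, limma). Of 18 listed chains H2-T10 was not found in the table under that symbol, H2-T23 and H2-T24 had no value, and H2-T3 and H2-M2 did not pass the filter. Of 6 trimming and loading factors 1 was higher, the chaperone Calr (log2 difference 0.06 ± 0.029, SE), and 0 were lower. Of 20 regulators 1 was higher, the interferon gamma receptor chain Ifngr2 (0.06 ± 0.024, SE), and 0 were lower, with a median of 0.02. Of 4 immunoproteasome and activator genes, 3 constitutive subunits, 4 class I receptors and 7 class II genes, 0 passed in either direction, with medians of 0.02, -0.01, 0.08 and 0.12.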

How the data were processed

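RNA was extracted from whole P7 cortices and sequenced from stranded mRNA libraries. The authors used SeqMan NGen to place reads (minimum length 50 bp) on the mm10 build, GRCm38, counted them per gene in ArrayStar and scaled them with TMM factors of edgeR, so that the deposited values are CPM on a linear scale, 1 column per pup. How reads of overlapping or similar genes were shared is not given in the sources used here. Reads were recovered from the CPM step of 1 read, and 100% of values of up to 20000 reads were whole within 0.05.

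Values were log2 transformed without a pseudocount, and missing values or those below -5 were set to -5, which concerned none of the 8 class I genes. Genes above -5 in at least 12 of 16 pups were kept. Genotype, sex and run were compared with limma 3.58.1 in R 4.3.3 (lmFit, eBayes with trend) and Benjamini-Hochberg adjustment over all 21183 genes. Single genes were also tested by a two-sided exact permutation test over 12870 splits, and relations by 100000 permutations within genotype. Transcript lengths are from GENCODE M21. Alternatives were other filters, scales, covariates, a replicate block, single runs, each pup left out and voom on the recovered reads. The replicate numbers 1 to 8 are serial numbers of different animals. The scripts were tested on simulated data. The sex of Avil-ChR2 replicate 4 differs between the labels (female, used here) and the study's supplement (male). Genes named are the 9 class I genes, lists of the pathway and cell type markers, and the genes most alike by r. All of these were chosen with earlier results of these data known.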

Additional observations from a re-analysis of the deposited data

Results flagged for a closer look

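The highest or lowest pup stood far from the others in 5 of the 16 gene and genotype groups of 8 pups, by the gap to the next pup over the range of the group; chance flags about 1 in 20 groups. In Avil-ChR2 pup 40 was far above the others for H2-K1 (16.5 CPM, next 6.46), for H2-D1 (37.5 CPM, next 29.5) and for Psmb9 (0.762 CPM, 37 reads, next 0.414). In ChR2-flfl pup 35 was far above the others for Psmb9 (0.825 CPM), and pup 26 was far below them for Psmb8 (0.350 CPM, 17 reads). The 3 flags of pup 40 fall in 1 library.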

How the results depend on the processing

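Of 261 values recomputed under alternatives other than leaving out a pup, 245 kept their direction and side of the threshold, or their count within 1.5 times, and no class I gene passed at an adjusted p under any alternative. Counts of genes at an adjusted p moved to 1 for genotype (from 2) under median centring, the replicate block, pups 26 to 33 only, pups 35 to 42 only and the latter without pup 40, and to 16 for run (from 26) with sex added; those at an unadjusted p for genotype fell to 672 among pups 26 to 33 only. Without pup 40 in pups 35 to 42, an alternative chosen after seeing the data, 1 class I gene (Psmb9) had an unadjusted p under 0.05, and the differences of H2-K1 (-0.091) and Tap1 (-0.058) turned. Genotype differences also turned for Psmb8 with quantile normalization (0.0044) and in pups 26 to 33 only (0.19), and for Tapbp in the latter (-0.0089). The sex difference of Tap2 turned with replicate 4 as male (-0.015), and the run differences of Tap1 with quantile normalization (-0.0033) and of Nlrc5 with sex added (0.041). The cause was not tested.

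With each pup left out in turn, genotype counts ranged from 1 to 2 genes at an adjusted p and from 929 to 1581 at an unadjusted p, and class I genes at an unadjusted p from 0 to 1, the 1 being Psmb9 without Avil-ChR2 replicate 8 (pup 40). The median genotype difference ranged from 0.02 (without pup 40) to 0.13, and that of Psmb8 from -0.22 (without ChR2-flfl replicate 1, pup 26) to 0.051, and that of Tapbp from -0.0013 to 0.071. For run, genes at an adjusted p ranged from 7 (without Avil-ChR2 replicate 1) to 123 (without ChR2-flfl replicate 4), class I genes at an unadjusted p from 0 to 1 (H2-K1, without pup 40), and differences from -0.0067 to 0.093 (H2-D1), -0.16 to 0.12 (H2-K1), -0.10 to 0.039 (Nlrc5), -0.052 to 0.24 (Psmb9), -0.072 to 0.082 (Tap1) and -0.012 to 0.083 (Tap2). For sex they ranged from -0.055 to 0.030 (H2-D1), -0.22 to 0.048 (Psmb9), -0.095 to 0.020 (Tap1), -0.0066 to 0.091 (Tap2) and -0.078 to 0.0010 (Tapbp).

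The replicate numbers did not pair the samples: r of the deviations of same-numbered pups lay between -0.34 and 0.39, over 0.1 in 3 of 8 pairs, and 2 of 16 pups correlated best with their own number. The replicate block left 1 gene at an adjusted p and 0 class I genes. The 2 planned count tests, edgeR and DESeq2 on recovered reads, were not run, because the deposited decimal commas kept the reads from being checked as counts; voom on the recovered reads, chosen after seeing the data, gave 0 class I genes at either p. Depth limits Psmb9, Nlrc5 and Psmb8 most, with 10 to 64 reads per pup.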
